A study of Mus musculus with 6 samples.

Results

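The cell cycle and DNA replication genes described here are 46 genes of the mouse heart, of 22556 in the deposited table of RPKM (read numbers scaled to a common transcript length and library size). They were taken by symbol, with genes under 1 RPKM included, and they fall by role into 26 genes of mitosis, the 6 Mcm subunits of replication licensing, 7 other genes of licensing and DNA synthesis, and 7 genes of G1 and G1/S, namely Ccnd1, Ccnd2, Ccnd3, Ccne1, Ccne2, Cdk4 and E2f1. RNA sequencing covered hearts of wild type mice at 0, 7 and 28 days of angiotensin II (Ang II), with 2 libraries per time. Ang II is the peptide hormone of the renin-angiotensin system that constricts vessels and raises blood pressure, and it was delivered under the skin by ALZET miniosmotic pumps at 1000 ng/kg/min. The strain, age and sex of the mice, what the 0 day controls received, and whether the 2 libraries of a time came from separate mice are not stated in the labels used here, so p-values measure only the spread between these libraries, which may be technical.

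Cells enter the cycle in G1, when D-type cyclins with Cdk4 release E2F factors, and E-type cyclins then carry them into S phase. Before S phase, Cdt1 loads rings of the Mcm proteins onto DNA as the later helicase, and geminin (Gmnn) keeps Cdt1 from loading them again. Mitotic genes are switched on last, in G2 and M, through a promoter element called the cell cycle genes homology region (CHR), often beside CCAAT boxes that bind NF-Y, whereas many replication genes carry E2F sites. In the adult mouse heart most cardiomyocytes have left the cycle, while fibroblasts, endothelial cells and macrophages can divide.

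A few promoters are printed to show these letters in the classes. RefSeq promoters, build GRCm38.p6, held 37 of the 46 genes with 40 promoters, each of 250 bases before to 50 bases after the start, while Ccna2, Aurkb, Kif20a, Tpx2, Mcm4, Gmnn, Ccnd1, Ccnd2 and Ccne2 had no match. The letters searched on both strands were TTTGAA or TTCGAA for the CHR, TTTCCCGC or TTTCGCGC or TTTGCCGC or TTTGGCGC for E2F, and CCAAT. The 160 bases upstream of the start are given for Cdc20 (chr4:118437344-118437503, minus strand), Ube2c (chr2:164769769-164769928, plus strand) and Cdk1 (chr10:69352913-69353072, minus strand), which carry CHR and CCAAT letters. They are given too for Mcm5 (chr8:75109349-75109508, plus strand) and Mcm6 (chr1:128359706-128359865, minus strand), which carry E2F and CCAAT letters, and for Cdk4 (chr10:127063375-127063534, plus strand), which holds no letters of the 3 motifs. Capitals mark every match in either orientation, read 5′ to 3′ toward the start.
Cdc20: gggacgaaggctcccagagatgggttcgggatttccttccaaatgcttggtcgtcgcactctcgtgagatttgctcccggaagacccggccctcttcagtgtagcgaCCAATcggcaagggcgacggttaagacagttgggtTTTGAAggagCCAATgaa
Ube2c: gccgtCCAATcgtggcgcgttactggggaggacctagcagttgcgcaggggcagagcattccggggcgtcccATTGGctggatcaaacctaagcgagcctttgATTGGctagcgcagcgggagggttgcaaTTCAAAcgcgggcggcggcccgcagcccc
Cdk1: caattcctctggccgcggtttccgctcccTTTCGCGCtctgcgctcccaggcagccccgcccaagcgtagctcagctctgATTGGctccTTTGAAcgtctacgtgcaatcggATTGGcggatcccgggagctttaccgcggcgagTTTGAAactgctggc
Mcm5: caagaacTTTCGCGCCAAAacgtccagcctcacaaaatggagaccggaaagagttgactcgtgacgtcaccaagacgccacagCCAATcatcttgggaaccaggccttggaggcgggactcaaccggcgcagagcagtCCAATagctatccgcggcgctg
Mcm6: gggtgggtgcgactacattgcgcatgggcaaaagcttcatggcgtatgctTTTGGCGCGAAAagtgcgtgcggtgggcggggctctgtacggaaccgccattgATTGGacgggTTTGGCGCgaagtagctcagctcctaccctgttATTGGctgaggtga
Cdk4: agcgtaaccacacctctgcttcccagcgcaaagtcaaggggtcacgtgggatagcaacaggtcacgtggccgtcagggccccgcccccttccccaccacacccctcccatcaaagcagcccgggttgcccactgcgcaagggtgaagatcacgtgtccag

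CHR letters were in 18 of the 23 mitotic promoters (78.3%), in 2 of 6 Mcm promoters and in none of the 6 promoters of other licensing and synthesis genes or the 5 of G1 and G1/S genes, against 19.2% of all 32851 promoters. E2F letters were in 4 of 6 Mcm promoters (66.7%) and in 1 of the 23 mitotic promoters, that of Cdk1, against 2.27% of all promoters. CCAAT letters were in 19 of 23 mitotic and all 6 Mcm promoters, 17 mitotic promoters held both CHR and CCAAT letters, and among all promoters 37.4% held CCAAT and 7.53% held both. In Mcm5 and in Mcm6 a pair of E2F matches overlap on opposite strands. A match describes these letters only, and a window without one says nothing about a factor.

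**Figure D1:**
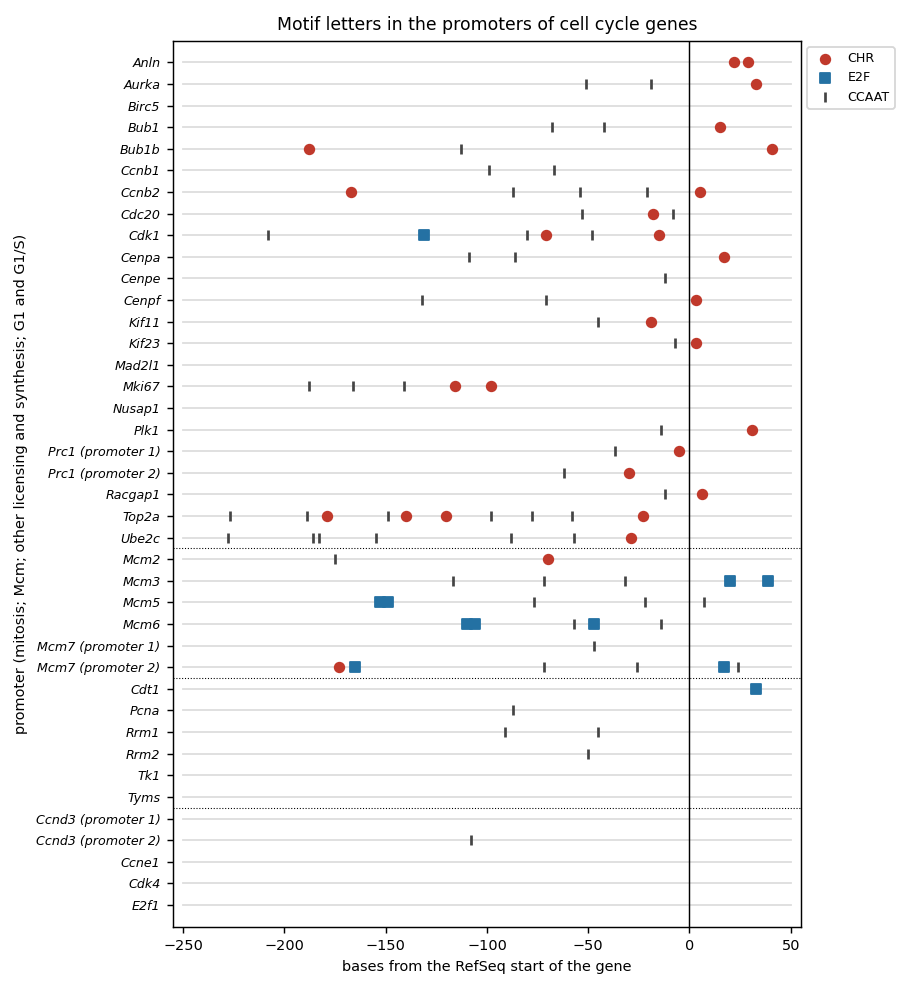
Positions of CHR (circles), E2F (squares) and CCAAT (bars) letters in the 40 RefSeq promoters of the cell cycle genes, by first base of the match in bases from the start. CHR letters lie mostly among the 23 mitotic promoters at the top and E2F letters mostly among the 6 Mcm promoters below them.

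The 2 controls differed in atrial markers. Nppa had 214.9 RPKM in control replicate 1 and between 1605 and 3040 RPKM in the other 5 libraries. Myl4, Myl7 and Sln had 472.5, 646.3 and 293.3 RPKM in control replicate 2, above the other 5 libraries, against 32.4, 52.5 and 20.2 RPKM in control replicate 1. None of these 4 markers was called at 7 days. The 7-day libraries had the highest RPKM sums over all genes, 541600 and 435700, against 333300 and 347300 in controls, and 360900 and 400100 at 28 days. Their highest genes were the short RNA genes Mir208b at 86360 RPKM in replicate 1 and Snord55 at 90200 RPKM in replicate 2, against 13560 to 27120 RPKM for the highest gene of the other 4 libraries. The part of these differences in the results was not tested.

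After 7 days of Ang II, 29 of the 46 genes rose and none fell. They were 22 of 26 mitotic genes, 3 of 6 Mcm genes, 2 of 7 other licensing and synthesis genes and 2 of 7 G1 and G1/S genes, and the median log2 changes over all genes of these classes, called or not, were 1.41, 0.67, 0.76 and 0.51 in that order. Over all 46 the median was 1.07, against 0.08 over the 17585 genes tested. The test was limma on log2(RPKM + 0.5) over all genes above 0 in at least 1 library, with a gene called at a Benjamini-Hochberg adjusted p under 0.05; on this scale the changes of genes at a low level are understated. In the same test 6.62% of all genes were higher and 0.984% lower. Both 7-day libraries lay above both controls for 41 of the 46 genes, as they did for 40.1% of all genes, and below them for Cenpf, Gmnn and Ccne2. In bulk libraries of whole tissue, more cells of a type and more RNA per cell cannot be told apart.

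The count at 7 days changed with the genes and libraries fitted. With genes under a mean of 0.1 RPKM left out, a filter chosen after seeing the data that keeps all 46, 34 of the 46 rose, against 11.7% of all genes. Aurkb, Cdt1, Tk1, Ccnd3 and Cdk4 were called only with this filter. Ccnb1, Bub1 and Cenpe pass this filter only through their 7-day levels. Without this filter 0 rose when only the groups compared were fitted, where 2 of all 17585 genes did. Leaving out any library without the filter ended most or all calls, over all genes as well as the 46. With it, leaving out a control or 7-day library lowered the count of the 46 and the count over all genes. The median log2 change of the 46 then ran from 0.90 without 7-day replicate 2 to 1.23 without 7-day replicate 1. The median log2 change of genes with a mean of at least 1 RPKM was 0.14 at 7 days, and median ratio scaling and quantile normalization put it at -0.01 and -0.04, with a median of the 46 cell cycle genes of 0.98 and 0.87 in place of 1.07. Of all calls at 7 days, 87.1% were higher, with 71.8% under median ratio scaling and 64.3% under quantile normalization. Under these scalings 23 and 20 of the cell cycle genes rose and none fell, beside 612 and 550 higher of all 17585 genes.

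**Figure D2:**
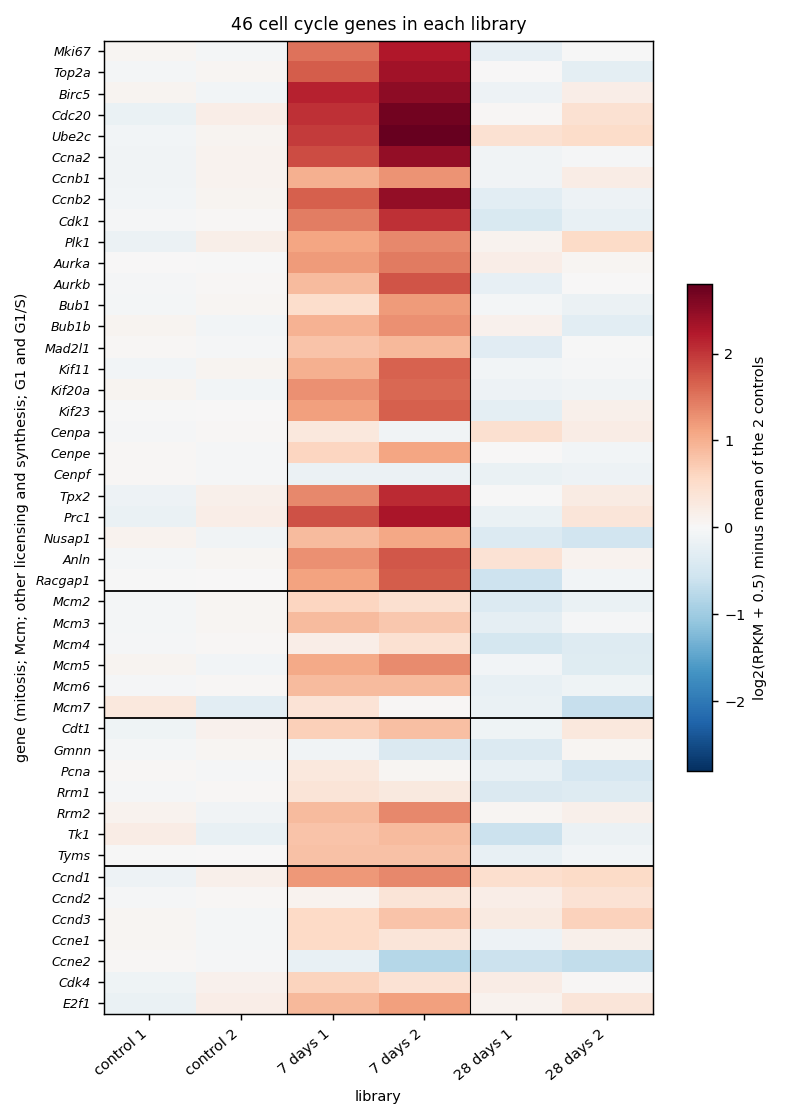
Level of each of the 46 genes in each library, as log2(RPKM + 0.5) minus the mean of the 2 controls, with black lines between the classes. The 2 libraries of 7 days carry the highest values, deepest among the mitotic genes and in replicate 2, and the 28-day libraries lie near the controls.

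At 28 days no cell cycle gene was called against controls by limma in either direction, and no other tool was run. At an unadjusted p under 0.05, 2 were higher (Ccnd1 and Ccnd3) and 4 lower (Nusap1, Mcm4, Rrm1 and Ccne2), against 9.79% higher and 7.37% lower of all genes, so these counts are no more than the background or near it. The median log2 change was -0.10, against 0.00 over all genes, of which 0.256% were called higher and 0.091% lower. The median of the 46 was -0.02 without 28-day replicate 1 and -0.07 without control replicate 2. Both 28-day libraries lay below both controls for 14 of the 46 genes, against 21.3% of all genes, and above them for 7, against 24.7%.

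Between the infusion times, 15 of the 46 genes were lower at 28 days than at 7 days and none was higher. They were 12 mitotic genes, Mcm5, Mcm6 and Tyms. The median log2 change was -1.04, against -0.08 over all genes, of which 1.36% were lower and 0.142% higher. For 40 of the 46 both 28-day libraries lay below both 7-day libraries, against 34.9% of all genes. Leaving out genes under a mean of 0.1 RPKM gave 32 lower, against 4.23% of all genes, and fewer of both when any library was also left out. The median of the 46 then ran from -1.22 without 7-day replicate 1 to -0.98 without 7-day replicate 2. With no such filter, leaving out any library ended the calls of the 46 and most or all of those over all genes. None of the 46 or of all genes passed when only the groups compared were fitted. Under quantile normalization 5 of the 46 passed, beside 65 of all genes. Of all calls in this comparison 9.47% were higher, and 19.8% under quantile normalization. This comparison shares the 7-day libraries with the first, so its direction is not a second, independent sign of it.

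**Figure D3:**
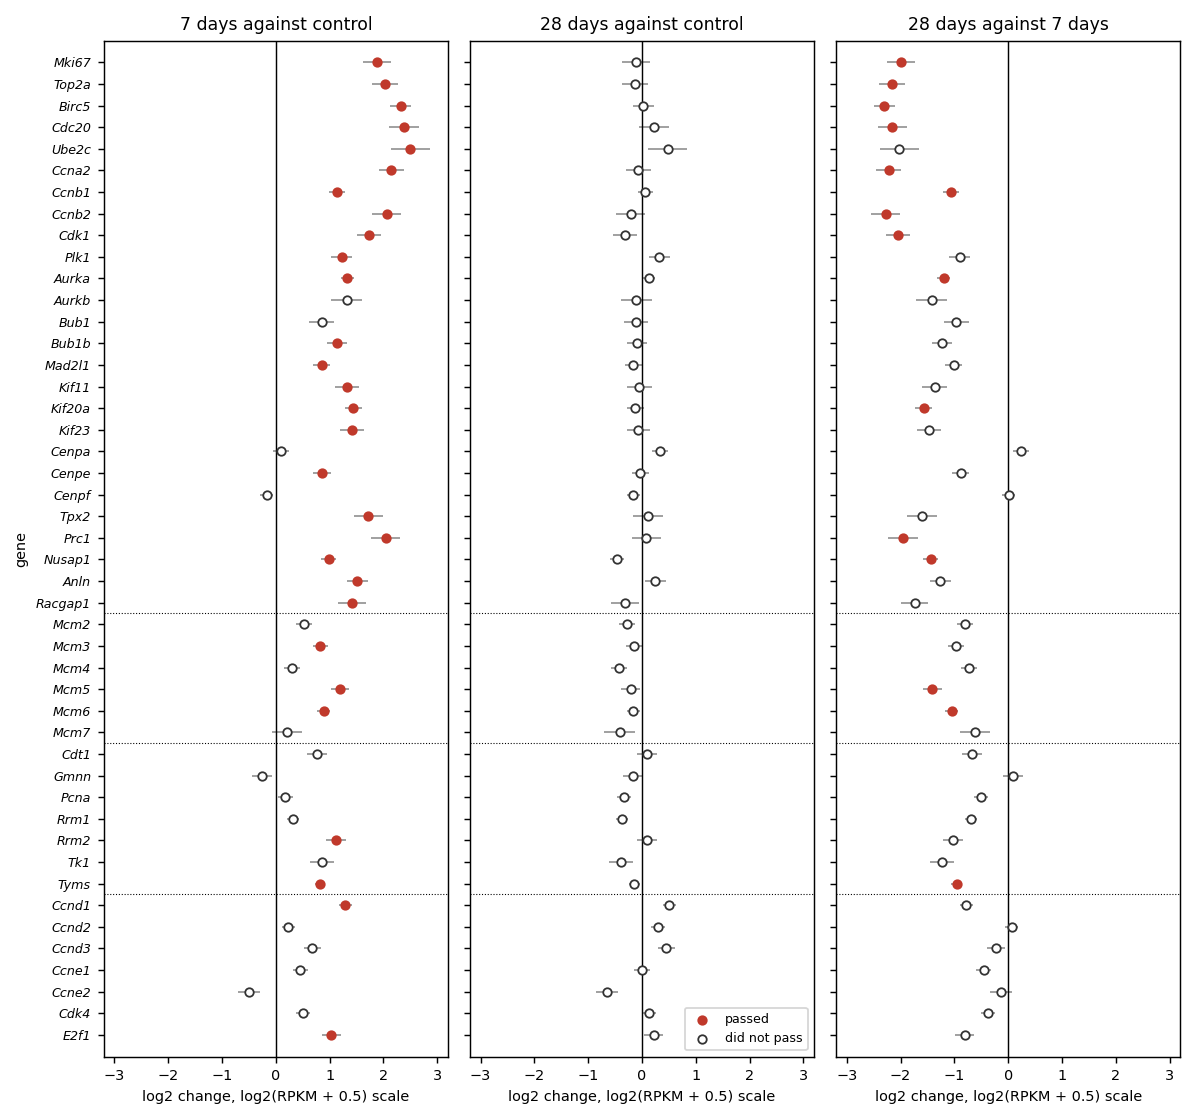
Log2 change on the log2(RPKM + 0.5) scale, with its standard error as a bar, for each of the 46 genes in the 3 comparisons; filled points passed limma at an adjusted p under 0.05, and dotted lines separate the classes. Filled points number 29 at 7 days against control, 0 at 28 days against control and 15 at 28 against 7 days.

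Among the mitotic genes, Mki67, whose protein Ki-67 coats mitotic chromosomes and is the usual stain for cycling cells, had 0.341 and 0.281 RPKM in controls, 1.81 and 3.33 RPKM at 7 days and 0.192 and 0.310 RPKM at 28 days. Top2a, the topoisomerase that untangles replicated DNA, had 0.371 and 0.439 RPKM in controls, 2.45 and 4.13 RPKM at 7 days and 0.407 and 0.250 RPKM at 28 days. Birc5, which encodes survivin of the chromosomal passenger complex, had 0.752 and 0.621 RPKM in controls, 4.75 and 6.21 RPKM at 7 days and 0.580 and 0.844 RPKM at 28 days. For all of these genes the 7-day libraries stood apart above the other 4, while the 28-day and control values overlapped. Their log2 changes at 7 days against control were 1.88 ± 0.26 for Mki67, 2.03 ± 0.25 for Top2a and 2.32 ± 0.20 for Birc5 (± SE, limma adjusted p 0.0217, 0.0169 and 0.00905 in that order). At 28 against 7 days all of them fell, by 1.99, 2.16 and 2.30 on the log2 scale in the same order.

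Cdc20 and Ube2c act with the anaphase-promoting complex, which marks mitotic proteins for destruction. Cdc20, an activator of that ubiquitin ligase, had 0.0926 and 0.265 RPKM in controls, 2.30 and 3.88 RPKM at 7 days and 0.188 and 0.399 RPKM at 28 days. Ube2c, its ubiquitin-conjugating enzyme, had 0.196 and 0.281 RPKM in controls, 2.35 and 5.60 RPKM at 7 days and 0.497 and 0.550 RPKM at 28 days. Both rose at 7 days, Cdc20 by 2.38 ± 0.28 and Ube2c by 2.50 ± 0.36 on the log2 scale (± SE, limma adjusted p 0.0160 and 0.0239), the highest log2 changes of the 46 genes on the log2(RPKM + 0.5) scale; by the ratio of group means Ccnb1 was higher, at 20.2, against 17.3 for Cdc20 and 16.7 for Ube2c. At 28 against 7 days Cdc20 fell (log2 change -2.15 ± 0.28, adjusted p 0.0411 in limma). Ube2c, with the widest SE of the 46 genes, had a log2 change of -2.03 ± 0.36 and did not pass (limma adjusted p 0.0724).

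The mitotic cyclins and their kinase moved together. Ccna2, cyclin A2 of S phase and G2, had 0.325 and 0.459 RPKM in controls, 2.68 and 4.39 RPKM at 7 days and 0.329 and 0.364 RPKM at 28 days. Ccnb2, a B-type cyclin, had 0.272 and 0.365 RPKM in controls, 2.10 and 3.97 RPKM at 7 days and 0.166 and 0.245 RPKM at 28 days. Cdk1, the kinase that these cyclins activate, had 0.306 and 0.345 RPKM in controls, 1.73 and 2.89 RPKM at 7 days and 0.113 and 0.219 RPKM at 28 days. For Ccnb2 and Cdk1 the 28-day libraries were the lowest of all, below both controls, though the difference from controls did not pass. Ccnb1, the other B-type cyclin, was listed at 0 in control replicate 1 and in 28-day replicate 1, had 0.0665 RPKM in control replicate 2 and 0.118 RPKM in 28-day replicate 2, and had 0.568 and 0.774 RPKM at 7 days. These 4 genes rose at 7 days (log2 change 2.15 ± 0.23 for Ccna2, 1.13 ± 0.15 for Ccnb1, 2.06 ± 0.27 for Ccnb2 and 1.74 ± 0.22 for Cdk1, ± SE, limma adjusted p from 0.0141 to 0.0195) and fell at 28 against 7 days (adjusted p from 0.0317 to 0.0445 in limma).

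The mitotic kinases were at low levels. Plk1, polo-like kinase, had 0.0368 and 0.176 RPKM in controls, 0.789 and 1.03 RPKM at 7 days and 0.150 and 0.372 RPKM at 28 days. Its RPKM steps gave whole reads, 1 and 5 in controls, 25 and 32 at 7 days and 4 and 9 at 28 days, so the control values rest on a few reads. Aurka, the Aurora kinase of the spindle poles, had 0.172 and 0.165 RPKM in controls, 1.04 and 1.32 RPKM at 7 days and 0.263 and 0.194 RPKM at 28 days. Aurkb, the Aurora kinase of the passenger complex, had 0.167 and 0.200 RPKM in controls, 0.754 and 1.80 RPKM at 7 days and 0.0850 and 0.188 RPKM at 28 days. All 3 kinases were highest in both 7-day libraries. Plk1 and Aurka rose at 7 days (log2 change 1.22 ± 0.20 and 1.32 ± 0.12, ± SE, limma adjusted p 0.0315 and 0.0108). Aurkb, whose 7-day libraries lay far apart, had a log2 change of 1.31 ± 0.29 and did not pass (limma adjusted p 0.0588).

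The other mitotic genes encode the spindle checkpoint (Bub1, Bub1b, Mad2l1), kinesins (Kif11, Kif20a, Kif23), centromere proteins (Cenpa, Cenpe, Cenpf) and spindle and cleavage factors (Tpx2, Prc1, Nusap1, Anln, Racgap1). All but Bub1, Cenpa and Cenpf rose at 7 days, with log2 changes from 0.85 for Mad2l1 to 2.04 for Prc1, a protein that bundles microtubules of the spindle midzone. Bub1, a checkpoint kinase, had a log2 change of 0.85 ± 0.23 and missed the threshold (limma adjusted p 0.0881). Cenpa, the histone H3 variant of centromeres, stood apart from the class in level, with 14.4 and 15.2 RPKM in controls, 18.1 and 13.8 RPKM at 7 days and 20.3 and 17.2 RPKM at 28 days. Its 7-day libraries lay on either side of the controls. Cenpf, a kinetochore protein of late G2 and mitosis, had 1.34 and 1.26 RPKM in controls, 1.09 and 1.11 RPKM at 7 days and 1.07 and 1.14 RPKM at 28 days. All of the infused libraries were below both controls for Cenpf, with log2 changes of -0.17 ± 0.12 at 7 days and -0.16 ± 0.12 at 28 days that did not pass (limma adjusted p 0.456 and 0.558). Neither gene passed at 28 against 7 days.

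Most of the mitotic class was near the bottom of the measured range outside the 7-day libraries. Its median level was 0.289 and 0.311 RPKM in controls, 1.51 and 2.45 RPKM at 7 days and 0.204 and 0.326 RPKM at 28 days. Group means were under 1 RPKM for 23 of the 26 genes in controls, 4 at 7 days and 24 at 28 days. The median ratio of the 7-day mean to the control mean was 7.70. The 7-day libraries also differed from each other, with replicate 2 above replicate 1 for 25 of the 26 mitotic genes, Cenpa being the exception. Among genes with a mean of at least 1 RPKM, replicate 2 was the higher for 47.7%. With the filter of 0.1 RPKM, 23 of the mitotic genes rose at 7 days, against 11.7% of all genes. Ccnb1 and Cenpe, counted among them, pass this filter only through their 7-day levels. Fewer rose without either control or 7-day replicate 2, as over all genes. The class median log2 change was then 1.40 without control replicate 1, 1.41 without control replicate 2 and 1.18 without 7-day replicate 2. At 28 against 7 days 22 were lower with the filter, Ccnb1 and Cenpe among them, against 4.23% of all genes. With no filter 5 were lower under quantile normalization. With the filter, fewer were lower when any library was left out, and fewest without 7-day replicate 2, as over all genes. The class median log2 change at 28 against 7 days was then -1.23 without 7-day replicate 2 and -1.46 without 28-day replicate 1.

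**Figure D4:**
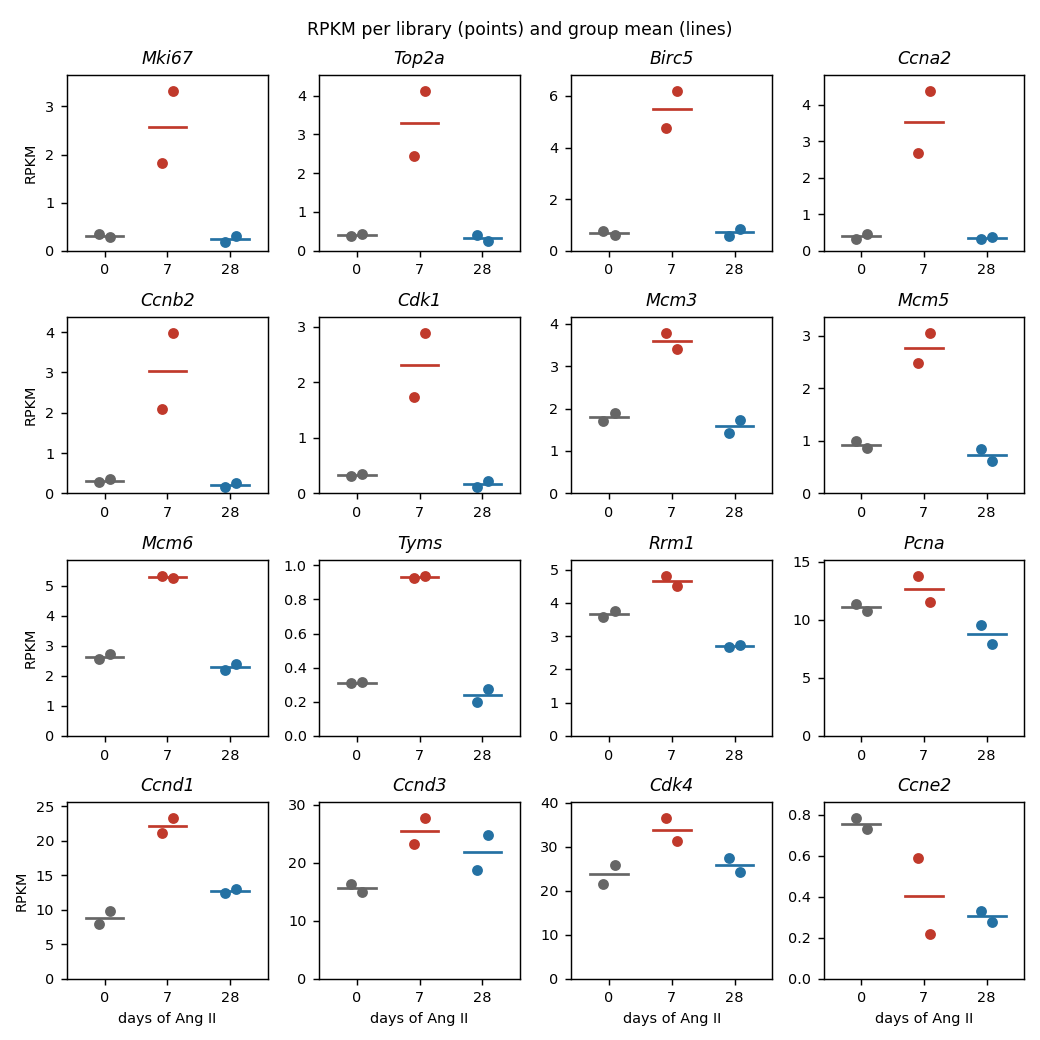
RPKM per library (points) and group mean (lines) at 0, 7 and 28 days for 16 of the cell cycle genes, each axis starting at 0. At 7 days the mitotic genes in the upper rows lie far above both other times, the Mcm genes lie above them by less, and Ccne2 is highest in controls.

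The Mcm genes encode the 6 subunits of the replicative helicase. Mcm2 had 1.55 and 1.73 RPKM in controls, 2.72 and 2.40 RPKM at 7 days and 1.14 and 1.37 RPKM at 28 days. Mcm3 had 1.71 and 1.89 RPKM in controls, 3.78 and 3.40 RPKM at 7 days and 1.43 and 1.74 RPKM at 28 days. Mcm4 had 1.84 and 1.92 RPKM in controls, 2.20 and 2.69 RPKM at 7 days and 1.20 and 1.34 RPKM at 28 days. In each of these genes both 7-day libraries were above both controls, and in Mcm2 and Mcm4 both 28-day libraries were below both controls. Mcm5 had 0.991 and 0.856 RPKM in controls, 2.49 and 3.05 RPKM at 7 days and 0.842 and 0.621 RPKM at 28 days. Mcm6 had 2.55 and 2.72 RPKM in controls, 5.33 and 5.27 RPKM at 7 days and 2.20 and 2.40 RPKM at 28 days. Mcm7 had 2.39 and 1.41 RPKM in controls, 2.58 and 1.89 RPKM at 7 days and 1.57 and 1.001 RPKM at 28 days. Both 7-day libraries were above both controls in Mcm5 and Mcm6 too, and both 28-day libraries were below them. Mcm7 alone overlapped between 7 days and control, since control replicate 1 lay between the 7-day libraries.

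Mcm3, Mcm5 and Mcm6 rose at 7 days, with log2 changes of 0.83 ± 0.15, 1.20 ± 0.17 and 0.89 ± 0.12 in that order (± SE, limma adjusted p 0.0376, 0.0230 and 0.0195). Mcm2, Mcm4 and Mcm7 did not pass, with log2 changes of 0.52 ± 0.15, 0.30 ± 0.15 and 0.21 ± 0.28. At 28 days all 6 genes had negative log2 changes against controls, from -0.43 for Mcm4 to -0.15 for Mcm3, none of which passed in limma. Both 28-day libraries lay below both controls for 4 of the 6, against 21.3% of all genes. At 28 against 7 days Mcm5 fell (log2 change -1.41 ± 0.17, adjusted p 0.0373 in limma) and Mcm6 fell (log2 change -1.05 ± 0.12, adjusted p 0.0345 in limma). With the filter of 0.1 RPKM, 3 of the Mcm genes were called at 7 days with every library, against 11.7% of all genes. These calls ended without control replicate 2 or without 7-day replicate 2, where calls over all genes also fell. The class median log2 change was then 0.73 and 0.74, against 0.67 with every library. After quantile normalization none of them was called at 28 against 7 days. The class median was 1.78 and 1.81 RPKM in controls, 2.65 and 2.87 RPKM at 7 days and 1.31 and 1.35 RPKM at 28 days, and 7-day replicate 2 was above replicate 1 in 2 of the 6.

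Of the other genes of licensing, Cdt1, the loader of the Mcm ring, had 0.333 and 0.495 RPKM in controls, 0.952 and 1.14 RPKM at 7 days and 0.338 and 0.624 RPKM at 28 days. Gmnn, its inhibitor, had 34.5 and 37.1 RPKM in controls, 33.4 and 26.7 RPKM at 7 days and 27.1 and 37.2 RPKM at 28 days. The partners thus differed in level and in order of the groups, Cdt1 being highest at 7 days and Gmnn lower in both 7-day libraries than in both controls. Neither passed at 7 days, with a log2 change of 0.76 ± 0.19 for Cdt1 and -0.26 ± 0.18 for Gmnn (± SE, limma adjusted p 0.0748 and 0.448).

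Of the 5 genes of DNA synthesis, Rrm2 and Tyms rose at 7 days and the others did not pass. Pcna, the sliding clamp of DNA polymerase, had 11.4 and 10.8 RPKM in controls, 13.8 and 11.6 RPKM at 7 days and 9.60 and 7.92 RPKM at 28 days. Rrm1, the large subunit of ribonucleotide reductase, had 3.56 and 3.75 RPKM in controls, 4.82 and 4.50 RPKM at 7 days and 2.66 and 2.75 RPKM at 28 days. For both genes the 7-day libraries were above and the 28-day libraries below the controls, and no comparison passed for either without the filter of 0.1 RPKM. With that filter Rrm1 was lower at 28 against 7 days (limma adjusted p 0.0308). Rrm2, the small subunit that limits the enzyme in S phase, had 0.558 and 0.426 RPKM in controls, 1.34 and 2.01 RPKM at 7 days and 0.529 and 0.586 RPKM at 28 days. Tk1, the thymidine kinase of S phase, had 1.06 and 0.655 RPKM in controls, 1.84 and 2.00 RPKM at 7 days and 0.380 and 0.700 RPKM at 28 days. Tyms, thymidylate synthase, had 0.310 and 0.315 RPKM in controls, 0.926 and 0.939 RPKM at 7 days and 0.199 and 0.275 RPKM at 28 days. All of these were highest in both 7-day libraries. The log2 change at 7 days was 1.12 ± 0.19 for Rrm2 and 0.82 ± 0.10 for Tyms (± SE, limma adjusted p 0.0337 and 0.0163), while Tk1, whose controls differed, had 0.85 ± 0.22 and did not pass (limma adjusted p 0.0860). Tyms fell at 28 against 7 days (log2 change -0.96 ± 0.10, adjusted p 0.0302 in limma). With the filter of 0.1 RPKM, 4 of the 7 genes of this class rose at 7 days, against 11.7% of all genes. Under either scaling without the filter 1 rose. With the filter, the calls ended without either control or 7-day replicate 2, where calls over all genes also fell. The class median log2 change was then 0.63 without either control and 0.67 without 7-day replicate 2, against 0.76 with every library.

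Among the G1 genes, the D-type cyclins and Cdk4 lay between 7.93 and 36.4 RPKM in every library. Ccnd1, cyclin D1, which growth factor signals induce, had 7.93 and 9.75 RPKM in controls, 21.2 and 23.3 RPKM at 7 days and 12.4 and 13.1 RPKM at 28 days. Ccnd2, cyclin D2, had 12.2 and 12.9 RPKM in controls, 13.6 and 16.2 RPKM at 7 days and 14.4 and 16.8 RPKM at 28 days. Ccnd3, cyclin D3, had 16.3 and 15.0 RPKM in controls, 23.2 and 27.7 RPKM at 7 days and 18.7 and 24.8 RPKM at 28 days. All 3 D-type cyclins were above both controls in all 4 infused libraries. Ccnd1 rose at 7 days (log2 change 1.29 ± 0.12, SE, adjusted p 0.0113 in limma), whereas Ccnd2 and Ccnd3 had 0.23 ± 0.12 and 0.68 ± 0.16 and did not pass (limma adjusted p 0.318 and 0.0684). At 28 days their log2 changes against controls were 0.51 ± 0.12 for Ccnd1, 0.30 ± 0.12 for Ccnd2 and 0.45 ± 0.16 for Ccnd3, and none passed (limma adjusted p 0.143, 0.311 and 0.257).

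Cdk4, the kinase of the D-type cyclins, had 21.5 and 25.8 RPKM in controls, 36.4 and 31.3 RPKM at 7 days and 27.5 and 24.3 RPKM at 28 days. E2f1, the activating transcription factor released in late G1, had 0.131 and 0.312 RPKM in controls, 0.841 and 1.09 RPKM at 7 days and 0.265 and 0.404 RPKM at 28 days. E2f1 rose at 7 days (log2 change 1.03 ± 0.18, SE, adjusted p 0.0350 in limma) on 30 and 38 reads at 7 days, against 4 and 10 reads in controls. Cdk4 was above both controls in both 7-day libraries and did not pass (log2 change 0.51 ± 0.13, limma adjusted p 0.0815). The E-type cyclins, partners of Cdk2 at the G1/S boundary, went apart in sign. Ccne1 had 0.503 and 0.440 RPKM in controls, 0.934 and 0.735 RPKM at 7 days and 0.383 and 0.565 RPKM at 28 days, and Ccne2 had 0.781 and 0.730 RPKM in controls, 0.586 and 0.218 RPKM at 7 days and 0.330 and 0.276 RPKM at 28 days. Ccne1 was higher in both 7-day libraries than in both controls, and Ccne2 was lower than both controls in every infused library. No comparison passed for either, with log2 changes at 7 days of 0.46 ± 0.15 for Ccne1 and -0.51 ± 0.20 for Ccne2 (limma adjusted p 0.128 and 0.201), and at 28 days of -0.65 ± 0.20 for Ccne2 (limma adjusted p 0.221). Exons of Ccne2 overlap those of Ints8 on the opposite strand. Ints8 had 4.03 and 4.07 RPKM in controls, 3.158 and 3.805 RPKM at 7 days and 3.14 and 3.22 RPKM at 28 days. A part of Ints8 reads in the Ccne2 values was not tested.

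At 28 days the median log2 change against controls was 0.22 in the G1 and G1/S genes, against -0.07 in mitosis, -0.25 in Mcm and -0.17 in other licensing and synthesis, a difference that was not tested between classes. The G1 and G1/S median was 0.04 without control replicate 1 and 0.34 without 28-day replicate 1, the mitotic median was -0.01 without 28-day replicate 1, and that of other licensing and synthesis was -0.07 without 28-day replicate 1. None of the 7 G1 and G1/S genes was called lower at 28 against 7 days in limma. At an unadjusted p under 0.05 in limma 4 were lower, against 15.8% of all genes. With the filter of 0.1 RPKM 1 passed, against 4.23% of all genes. At 7 days 4 of the 7 rose with that filter, against 11.7% of all genes. Fewer rose without a control or 7-day library, as over all genes. The class median log2 change then ran from 0.40 without 7-day replicate 1 to 0.63 without control replicate 2.

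Other genes of the pathway were counted from lists that exclude the 46. Of 66 other mitotic genes tested, 39 rose and 0 fell at 7 days, with a median log2 change of 0.93, and 21 were lower at 28 against 7 days, beside the 6.62% of all genes higher at 7 days and the 1.36% lower at 28 against 7 days. Ckap2, a microtubule protein of the spindle, had 0.123 and 0.147 RPKM in controls, 3.56 and 2.14 RPKM at 7 days and 0.0625 and 0.242 RPKM at 28 days, the largest change of that list (2.36 ± 0.25 at 7 days, limma adjusted p 0.0136). Cks2, a small partner of the cyclin-dependent kinases, had 0.0707 and 0.272 RPKM in controls, 2.13 and 2.62 RPKM at 7 days and 0.504 and 0.319 RPKM at 28 days. Of 56 other replication genes, 8 rose at 7 days with a median log2 change of 0.25, and 7 were lower at 28 against 7 days, beside the same shares of all genes. Rfc3, a subunit of the clamp loader, had 1.71 and 1.57 RPKM in controls, 3.31 and 3.83 RPKM at 7 days and 2.76 and 2.57 RPKM at 28 days, rising at 7 days (0.92 ± 0.14, limma adjusted p 0.0250). Lig1, the ligase that joins Okazaki fragments, had 1.03 and 1.24 RPKM in controls, 2.45 and 2.25 RPKM at 7 days and 0.439 and 0.719 RPKM at 28 days, and it fell at 28 against 7 days (-1.41 ± 0.18, limma adjusted p 0.0397). In neither list did any gene pass at 28 days against control in limma. There an unadjusted p under 0.05 was reached by 0 higher and 2 lower mitotic genes and by 1 higher and 4 lower replication genes. Of all genes 9.79% were higher and 7.37% lower at that p, so these counts are no more than the background or near it.

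Macrophage and fibroblast markers were mostly higher at 7 days, other cell type lists less so, and their part in the cell cycle rise was not tested. Beside the counts below, 6.62% of all genes were called higher at 7 days and 1.36% lower at 28 against 7 days. Summed macrophage and monocyte markers were 640 and 719 RPKM at 7 days, against 387 and 394 RPKM in controls. Of the 13 measured 6 rose, and Cd163 was the 1 with a negative log2 change (-0.37, not called). Summed fibroblast markers were 925 and 967 RPKM at 7 days, against 472 and 477 RPKM in controls, and 5 of 8 rose, while Pdgfra, Dcn and Tcf21 were not called. At 28 days these sums were 352 and 258 RPKM for macrophages, and 540 and 441 RPKM for fibroblasts, with 6 and 4 markers lower than at 7 days. Endothelial markers summed to 300.0 and 337 RPKM at 7 days, against 233 and 220.0 RPKM in controls, and 2 of 8 rose. None of the 8 smooth muscle and pericyte markers, the 9 T and B cell markers or the 5 tested neutrophil markers passed at 7 days. There 4, 0 and 2 were higher at an unadjusted p under 0.05, as were 3702 of all 17585 genes. The smooth muscle sums were 299.9 and 263 RPKM at 7 days, against 187 and 199.8 RPKM in controls, the T and B cell sums lay between 1.19 and 2.32 RPKM in all libraries, and the neutrophil granule genes Mpo and Elane were at 0 in all 6 libraries. Summed erythroid markers were 32.6 and 40.4 RPKM at 7 days, against 20.7 and 10.5 RPKM in controls, with 1 of the 5 measured, Hbb-b2, called and the red cell gene Slc4a1 under 0.1 RPKM in all libraries. The neutrophil sum was 7.10 and 13.7 RPKM at 7 days, against 2.16 and 1.39 RPKM in controls, and 33.8 and 125 RPKM at 28 days. Cardiomyocyte markers, which match the labelled tissue, summed to 45760 and 36860 RPKM at 7 days, against 40080 and 39140 RPKM in controls, and 1 of 8 rose; at 28 days they summed to 46300 and 50240 RPKM.

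**Figure D5:**
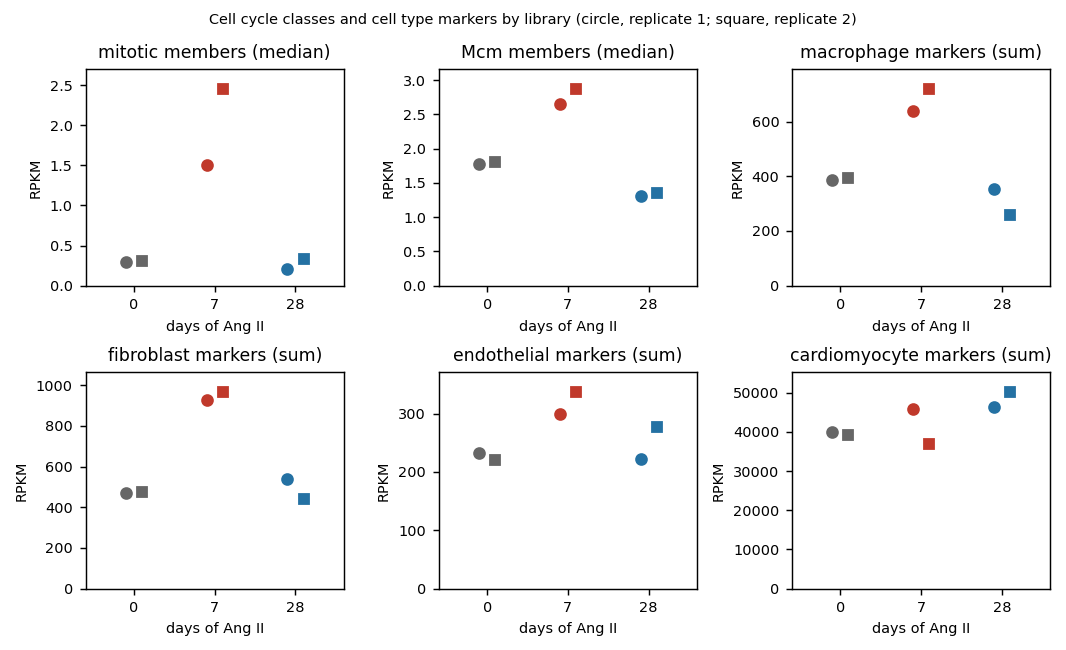
Median RPKM of the mitotic and Mcm genes and summed RPKM of 4 cell type marker lists in each library at 0, 7 and 28 days (circles, replicate 1; squares, replicate 2; axes from 0). The mitotic median is highest in 7-day replicate 2, and macrophage and fibroblast sums are highest in both 7-day libraries, whereas the cardiomyocyte sums at 7 days overlap those of the controls.

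Some values carry limits of counting. Depth relative to control replicate 1 was between 0.890 and 1.17 in the libraries, and 15636 to 16036 genes were above 0. RPKM steps gave whole reads for 10 of the 46 genes, within 0.02 of a whole read. Racgap1, a regulator of the cleavage furrow, had 74 and 118 reads at 7 days, against 18 and 20 reads in controls, and Mcm3 had 320 and 281 reads at 7 days, against 124 and 144 reads in controls. Exons overlap those of a gene on the opposite strand, by 29.3% of exon bases for Kif20a (Cdc23), 23.4% for Ccnd1 (LTO1), 22.8% for Ube2c (Tnnc2), 19.7% for Cdk4 (Tspan31), 17.4% for Ccne2 (Ints8), 12.5% for Ccna2 (Exosc9) and 11.1% for Prc1 (Rccd1) in GENCODE. Whether strand was used in counting is not stated in the labels used here, so the reads of these pairs may be mixed.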

How the data were processed

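RNA was sequenced from mouse hearts, 2 libraries at each of 0, 7 and 28 days of Ang II. The deposited table holds RPKM per gene, made by the authors as its column headers state. Named without roles in the submitters' processing notes are the builds mm8 and mm9, HTSeq, DESeq2, Bowtie 0.12.9 and TopHat2 2.0.12. The annotation used and the tool that computed RPKM are not stated in the labels. Read totals are not given, so depth was taken only relative to control replicate 1.

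Genes above 0 in at least 1 library (17585 of 22556) were fitted in limma 3.58.1 (R 4.3.3) on log2(RPKM + 0.5), with group means, all 6 libraries and variances moderated toward a trend (3 residual and 2.35 prior degrees of freedom). Benjamini-Hochberg adjustment ran over all genes fitted at a threshold of 0.05. No filter on the mean was used, because it keeps low cell cycle genes only where a group raises them. Alternatives were other pseudocounts, a mean of at least 1 RPKM, scaling by median ratios or by quantiles, a fit of the compared groups alone, untrended variances, a block for the replicate number, and each library left out. A mean of at least 0.1 RPKM (14210 genes) was added after seeing the data. The script was tested on simulated data.

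Genes were matched by symbol, with Emr1 standing for Adgre1. Levels in every library are given for 32 genes fixed by name, and other members by ranges, except that Cenpa, Cenpf, Nusap1, Kif20a and the reads of Racgap1 were chosen after their values were seen. Outside the 46, the CDK inhibitors and at most 3 genes per list and comparison, the largest changes that passed without overlap, could be named, and only some of them are described. The members and lists were chosen with earlier results of these data known. Whole reads were looked for in RPKM steps with a tolerance of 0.02 reads. Exon overlaps come from GENCODE gene models. Python 3.11.15 with pandas 2.3.3 made the other tables. Coordinates come only from RefSeq promoters, which are on another build than mm8 or mm9.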

Additional observations from a re-analysis of the deposited data

Results flagged for a closer look

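For 12 of the 46 genes (26.1%) both 7-day libraries lay above both controls and both 28-day libraries lay below both controls, a pattern that 3.60% of all genes tested had, and the opposite pattern was seen in none of the 46. Since the 12 genes were chosen by these levels, a lower level at 28 than at 7 days is fixed by the choice, and their log2 changes at 28 against 7 days are given as a description, with no test. They were -2.28 for Ccnb2, -2.05 for Cdk1, -1.57 for Kif20a, -1.44 for Nusap1, -1.41 for Mcm5, -1.05 for Mcm6, -0.96 for Tyms, -1.74 for Racgap1, -0.80 for Mcm2, -0.73 for Mcm4, -0.51 for Pcna and -0.69 for Rrm1. No gene of the 12 passed at 28 days against control in limma, where Nusap1, Mcm4 and Rrm1 had an unadjusted p under 0.05. Nusap1, a microtubule protein of the spindle, had 0.473 and 0.352 RPKM in controls, 1.17 and 1.43 RPKM at 7 days and 0.198 and 0.125 RPKM at 28 days. Kif20a, the kinesin of the cleavage furrow, had 0.484 and 0.379 RPKM in controls, 1.74 and 2.35 RPKM at 7 days and 0.338 and 0.363 RPKM at 28 days. With 2 libraries per group, no single library could be tested as an outlier.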

How the results depend on the processing

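At 7 days against control, where 29 genes were called higher, 16 of the 25 with a mean of at least 1 RPKM were called, 0 when only the groups compared were fitted, and from 0 to 34 with each library left out, with and without the added filter of 0.1 RPKM. The filter of 1 RPKM selects in part on the rise being counted. Of its 25 genes, Mki67, Top2a, Birc5, Cdc20, Ube2c, Ccna2, Ccnb2, Prc1, Mcm5 and Tk1 passed it only through their 7-day levels. Their means were under 1 RPKM in controls and at 28 days. Of all 11096 genes with that filter, 1461 were called higher at 7 days. At 28 against 7 days, where 15 were lower, 5 were called after quantile normalization, beside 65 of all 17585 genes. With only the groups compared or with a replicate block 0 were called, beside 0 and 1 of all genes. By unadjusted p with a fold threshold 36 were lower, beside 993 of all genes, and 1 was lower at 28 days against control, beside 343. Leaving out a library ended most or all calls in both counts without the filter of 0.1 RPKM, and lowered most counts with it. With the filter of 0.1 RPKM, 32 were lower at 28 against 7 days, 29 with a replicate block, 26 under median ratio scaling and 23 under quantile normalization. Of all 14210 genes, 601, 426, 294 and 251 were lower in that order. The other settings kept both counts within 1.5 times, and no setting tested by adjusted p called a gene at 28 days against control. Prior degrees of freedom were 2.35, 4.16 with the filter of 0.1 RPKM and 1.38 without control replicate 1. Over all genes, 45 were higher and 16 lower at 28 days against control, and 318 and 171 with a mean of at least 1 RPKM.

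Replicate numbers were not taken as pairs, since the replicate differences of the groups correlated across 11096 genes at -0.01 (7 with 28 days), 0.15 (7 days with control) and -0.02 (28 days with control). With the replicate number as a block, 24 of the 46 genes were higher at 7 days and 0 were lower at 28 against 7 days, beside 678 and 1 of all 17585 genes.

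Of the 32 genes followed one by one, signs turned in the differences below, none of which was called; the other 14 genes were not followed in this way. With each library left out, log2 changes at 28 days against control ran from -0.2697 to 0.0039 for Top2a, -0.1341 to 0.1819 for Birc5, -0.1798 to 0.0362 for Ccna2, -0.0901 to 0.2145 for Ccnb1, -0.2243 to 0.01 for Aurkb, -0.119 to 0.3042 for Cdt1, -0.3926 to 0.0564 for Gmnn, -0.0019 to 0.1904 for Rrm2 and -0.137 to 0.1335 for Ccne1, which was 0.0001 with a pseudocount of 1. At 7 days they ran from -0.0902 to 0.5049 for Mcm7, and at 28 against 7 days from -0.137 to 0.312 for Gmnn, -0.0621 to 0.1885 for Ccnd2 and -0.4363 to 0.16 for Ccne2, which was 0.0046 under quantile normalization with the filter. The cause was not tested. Precision is limited by 2 libraries per group, unknown read totals and levels of most mitotic genes under 1 RPKM outside 7 days.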

Other observations

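The inhibitors of cyclin-dependent kinases, which are not among the 46 genes, were called higher for 3 of the 8 and lower for 1 at 7 days, against 6.62% and 0.984% of all genes; with genes under a mean of 0.1 RPKM left out, which drops Cdkn2a, 2 were higher. Cdkn1a, which encodes p21, had 5.29 and 7.30 RPKM in controls, 25.1 and 53.5 RPKM at 7 days and 49.5 and 33.4 RPKM at 28 days. All 4 infused libraries lay above both controls, with a log2 change of 2.47 ± 0.40 at 7 days (± SE, limma adjusted p 0.0316). At 28 days its log2 change was 2.62 ± 0.40, which did not pass (limma adjusted p 0.0734) and passed with genes under a mean of 0.1 RPKM left out (limma adjusted p 0.0187). Cdkn3, a phosphatase that acts on Cdk2, had 0 and 0.237 RPKM in controls, 0.847 and 1.52 RPKM at 7 days and 0.125 and 0 RPKM at 28 days. Cdkn2a, which encodes p16 and p19Arf, was listed at 0 in both controls and both 28-day libraries and had 0.188 and 0.173 RPKM at 7 days. Cdkn1c, which encodes p57, had 8.11 and 8.23 RPKM in controls, 5.10 and 3.96 RPKM at 7 days and 5.08 and 6.30 RPKM at 28 days, and it fell at 7 days (-0.79 ± 0.16, limma adjusted p 0.0486). Cdkn1b, Cdkn2b, Cdkn2c and Cdkn2d did not pass at 7 days. None of the 8 passed at 28 days against control in limma without that filter. An unadjusted p under 0.05 in limma was reached there by 1 higher and 3 lower genes, against 9.79% and 7.37% of all genes. Cdkn2a was the 1 gene lower at 28 against 7 days, and it entered the fit only through its low 7-day values. With genes under a mean of 0.1 RPKM left out, which drops Cdkn2a, Cdkn3 was the 1 gene lower instead (limma adjusted p 0.027).

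Of 25 other regulators listed under G1 and G1/S, 2 rose and 3 fell at 7 days, against 6.62% and 0.984% of all genes, so the count of risers is near the background. The fallers include Wee1, which acts on the mitotic kinase Cdk1 and so is not a regulator of G1 alone. None of the 25 passed in the other comparisons in limma. With an unadjusted p under 0.05 in limma, 2 were higher and 6 lower at 28 days against control, where 9.79% and 7.37% of all genes were. At 28 against 7 days 1 was higher and 10 lower, where 2.65% and 15.8% of all genes were. Myc, a transcription factor that drives growth, had 0.874 and 1.12 RPKM in controls, 3.23 and 2.62 RPKM at 7 days and 2.49 and 1.78 RPKM at 28 days, with a rise at 7 days (1.19 ± 0.20, limma adjusted p 0.0344). Tfdp2, a partner of E2F factors, had 13.6 and 13.7 RPKM in controls, 7.31 and 6.73 RPKM at 7 days and 11.7 and 8.40 RPKM at 28 days, with a fall at 7 days (-0.91 ± 0.16, limma adjusted p 0.0373). Wee1, the kinase that holds Cdk1 inactive, had 4.89 and 4.26 RPKM in controls, 2.51 and 2.08 RPKM at 7 days and 2.76 and 2.22 RPKM at 28 days, with a fall at 7 days (-0.86 ± 0.16, limma adjusted p 0.0432). In both infusion times Wee1 lay below both controls.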
